A study of Caenorhabditis elegans with 2 samples.

Results

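The strong distal intronic sites of UNC-62 were the 590 intervals of a ChIP-seq peak list that lay in introns, away from gene 5′ ends, and had a high signal. They were chosen by the signal value that the authors gave each interval of the list called on both replicates together: the value was 18 or more, the summit lay over 1 kb from the 5′ end of every protein-coding gene, and it was inside a protein-coding gene but in no annotated exon. They made up 7.55% of the 7815 distal intronic entries of that list and were compared with the other 7225. In the whole list of 30000 entries, 2515 (8.38%) reached a signal of 18. Because the signal chose the sites, its values are given as a description.

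The DNA came from whole L1 larvae, the first larval stage, of mixed sex, as 2 biological replicates that formed the only group. The strain, OP600, carried unc119(ed3) and the transgene wgIs600, which holds unc-62 fused to TY1, EGFP and FLAG tags together with unc119. The antibody field names unc-62, while the description names the eGFP fusion. Whole animals mix many cell types, so a site bound in few cells and a weak site in many cannot be told apart, and read depth is unknown.

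UNC-62 is a homeodomain protein of the Meis class, a branch of the TALE homeodomain family. Proteins of this class bind DNA beside Pbx-class partners, of which CEH-20 is one in the worm, and often beside Hox proteins, at sites built around the core TGACA. In the worm UNC-62 is known for roles in embryonic patterning, neuroblast migration and vitellogenin expression. Introns of worm genes are mostly short, and the longer ones are where intronic enhancers and internal promoters have been found.

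The sequences below show the 2 Meis-type motifs in the sites themselves, read from the RefSeq genome of build WBcel235, the sequence of ce11. The first set holds TGACAG, the Meis hexamer, in 5 of the 6 strongest sites with it; that of mef-2 is not printed. Each is printed 5′ to 3′ on the strand that reads TGACAG, with the hexamer in capitals.
Y111B2A.12 (plus strand, chrIII:12612688-12612727): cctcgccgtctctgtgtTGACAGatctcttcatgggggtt
Y43F8B.2 (plus strand, chrV:19523009-19523048): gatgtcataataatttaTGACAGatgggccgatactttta
fkh-7 (minus strand, chrIV:5593978-5594017): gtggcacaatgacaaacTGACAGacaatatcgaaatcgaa
daf-14 (plus strand, chrIV:10252599-10252638): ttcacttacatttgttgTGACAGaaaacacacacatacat
tat-2 (plus strand, chrIV:4843098-4843137): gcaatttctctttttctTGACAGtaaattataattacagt

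The second set holds TGATTGAC, the Pbx-Meis composite in which the Pbx element precedes the Meis element, for 6 of the 7 sites with it. Capitals mark the composite, on the strand that reads it in this form. At unc-119 the composite is followed by AG, so that the Meis hexamer TGACAG overlaps it.
Y56A3A.7 (plus strand, chrIII:11935834-11935873): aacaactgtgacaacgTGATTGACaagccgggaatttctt
ptp-1 (plus strand, chrIII:3601400-3601439): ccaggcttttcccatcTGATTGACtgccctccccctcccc
egl-44 (minus strand, chrII:5934440-5934479): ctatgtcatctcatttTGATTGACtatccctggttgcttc
zfp-1 (plus strand, chrIII:8797797-8797836): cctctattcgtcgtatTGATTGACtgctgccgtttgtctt
unc-119 (minus strand, chrIII:10905437-10905476): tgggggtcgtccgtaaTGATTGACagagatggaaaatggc
E01G4.3 (plus strand, chrII:13462205-13462244): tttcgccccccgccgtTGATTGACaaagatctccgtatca

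The last set gives the whole 201-base window around 4 of the strongest summits, on the plus strand, because these windows hold the repeat that separated strong from weak sites below. Capitals mark GAGAGA or its complement TCTCTC, here called the GAGA repeat, and TGACA or its complement TGTCA. The Y111B2A.12 window ends in a run of TC and held 5 overlapping repeat matches, while that of Y43F8B.2 held 6. Both also held 2 matches to the Meis core, which the pqn-41 and sir-2.2 windows lacked.
Y111B2A.12 (plus strand, chrIII:12612570-12612770): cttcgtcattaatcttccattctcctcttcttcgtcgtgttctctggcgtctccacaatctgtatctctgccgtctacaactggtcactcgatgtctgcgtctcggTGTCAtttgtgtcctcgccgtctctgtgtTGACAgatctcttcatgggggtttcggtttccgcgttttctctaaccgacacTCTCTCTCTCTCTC
pqn-41 (plus strand, chrIII:1921312-1921512): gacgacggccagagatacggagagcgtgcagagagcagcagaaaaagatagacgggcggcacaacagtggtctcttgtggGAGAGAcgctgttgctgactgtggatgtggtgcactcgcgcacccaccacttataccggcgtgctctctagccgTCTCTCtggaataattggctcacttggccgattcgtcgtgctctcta
Y43F8B.2 (plus strand, chrV:19522848-19523048): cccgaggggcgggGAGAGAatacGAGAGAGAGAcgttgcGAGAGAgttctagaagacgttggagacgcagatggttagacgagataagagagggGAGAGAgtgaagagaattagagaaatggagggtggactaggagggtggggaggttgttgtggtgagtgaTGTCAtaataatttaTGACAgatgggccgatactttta
sir-2.2 (plus strand, chrX:13329002-13329202): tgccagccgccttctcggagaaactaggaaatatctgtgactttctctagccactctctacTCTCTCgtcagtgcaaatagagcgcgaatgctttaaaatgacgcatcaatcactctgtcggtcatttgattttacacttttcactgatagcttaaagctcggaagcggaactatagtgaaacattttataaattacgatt

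Signal values of the 590 sites ran from 18.006 to 123, with a median of 20.1 and quartiles of 18.9 and 22.04. Just inside the limit lay sites in C34B4.2 (18.008), arl-13 (18.007) and C02B10.3 (18.006). Just outside it lay entries in Y105C5A.15 (17.996), unc-112 (17.991) and lev-8 (17.983). The sites at the lower edge therefore differed little in signal from the entries they were compared with. Strong here means a high signal only, not strong statistical support. The authors' −log10 q-value, lower where support is weaker, was 2.54 at the strongest site, in Y111B2A.12. It was 2.09 in daf-14 (signal 30.8), 1.02 in unc-54 (26.97), 0.463 in unc-52 (22.7) and 0.299 in unc-119 (20.2). Sites near the median signal thus had weak support by this value.

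The strongest site lay in the fourth of 7 introns of Y111B2A.12 (chromosome III, 12612502 to 12612837, build ce11). It reached 123 in the pooled list, with 38.97 in replicate 1 and 84.5 for replicate 2. It stood well above the second, in intron 14 of pqn-41 (chromosome III, 1921244 to 1921579), at 72.8 pooled, 27.7 in replicate 1 and 43.9 in replicate 2. The gene pqn-41 encodes a glutamine-rich protein known for its part in the death of the linker cell. Of its 14 distal intronic entries 5 were strong. After the first came 58.98 (10.1 in replicate 1, 40.7 in replicate 2), then 58.6 and 46.8, which replicate 1 did not list and which had 57.4 and 46.2 in replicate 2, and then 20.9.

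Next came a site in the first intron of mef-2, which encodes a MADS-box transcription factor (chromosome I, 9097650 to 9097985). Its values were 54.8 pooled, 19.7 in replicate 1 and 35.1 in replicate 2. A site in Y43F8B.2 (chromosome V, 19522780 to 19523115) had 53.7, 19.98 and 31.1 in the same order, and its summit lay 87 bp from the start of an annotated internal transcript. The site in pxn-1, which encodes a peroxidasin of the extracellular matrix, had 47.1, 12.1 and 39.04, and lay 16 bp from an annotated snoRNA gene. That in sir-2.2, a sirtuin gene, had 46.5, 8.66 and 35.6. In all 4 the replicate 2 value was the higher.

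The rest of the 20 strongest lay in zfp-1 (43.3 and 37.4), the worm homologue of the chromatin protein AF10, in C34B4.2 (42.9), in the phosphatase subunit gene ppfr-1 (40.6) and in Y56A3A.7 (39.6), whose summit was 801 bp from the microRNA gene mir-86. They also included mpk-1 (38.5), the ERK-type MAP kinase, Y41G9A.17 (38.1), the forkhead gene fkh-7 (36.04), the dynein heavy chain gene dhc-4 (35.7), sulp-3 (34.4), which encodes an anion transporter, and Y38F2AR.12, whose pooled signal closed the 20. Of these, 3 lay beside small RNA genes. The summit in dhc-4 was 63 bp from a snRNA gene, sulp-3 100 bp from a tRNA gene and Y38F2AR.12 90 bp from a snoRNA gene. In the dhc-4 and sulp-3 intervals 74.8% and 86.6% of 31-base words occurred once in the genome, against 100% for the others of the 20. The part of repeated sequence in these values was not tested.

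**Figure D1:**
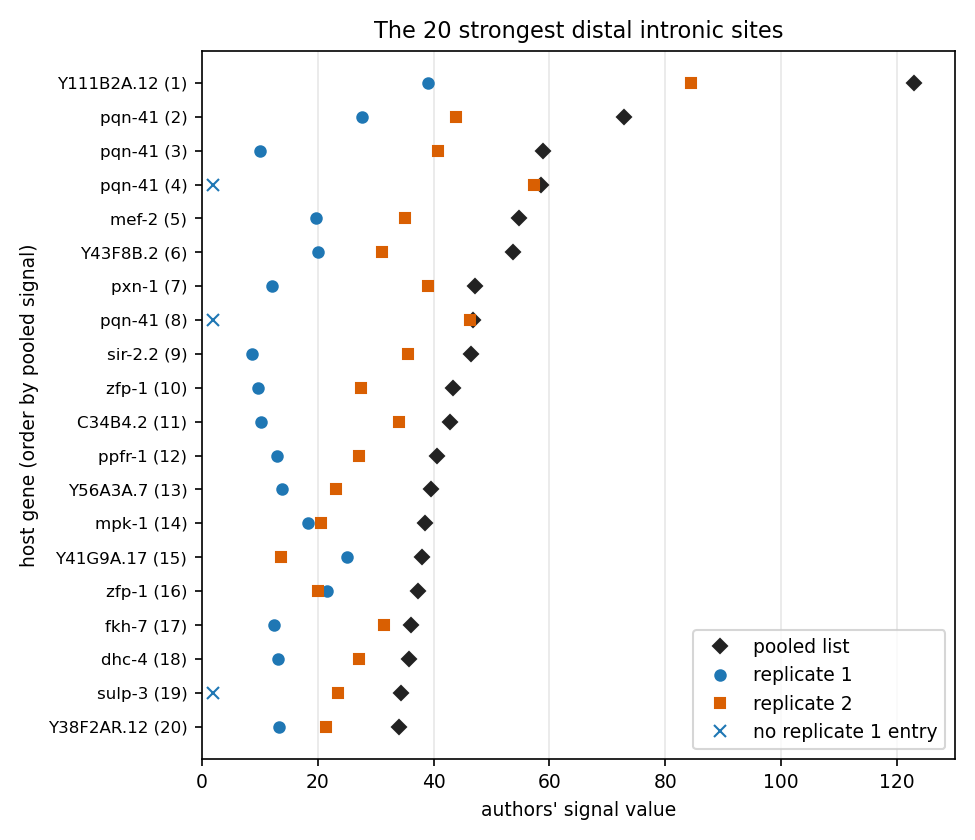
Authors' signal value (horizontal axis, linear scale, no unit) of the 20 strongest sites in the pooled list, replicate 1 and replicate 2, named by host gene. The Y111B2A.12 site stands apart at 123, and 3 sites have no replicate 1 entry.

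The 590 sites fell in 491 genes, which is 13.4% of the 3671 genes with a distal intronic entry. Of these genes 415 had 1 site, 57 had 2, 16 had 3, 2 had 4 and pqn-41 had 5. The genes with 4 were zfp-1 and hlh-30, the worm homologue of the autophagy regulator TFEB. In zfp-1 all 4 of its distal intronic entries were strong, at 19.4 to 43.3, while in hlh-30 4 of 13 were, at 18.6 to 25.3.

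Genes with 3 sites included daf-16, the FOXO factor of insulin signalling (18.2 to 31.2), fkh-7 (18.7 to 36.04), let-526, an ARID-domain subunit of the SWI/SNF remodeller (19.1 to 31.5), the nucleoporin gene npp-8 (19.3 to 24.99), and pkg-2, a cGMP-dependent kinase gene (19.4 to 23.4). The others were C34B4.2, ppfr-1, sulp-3, scd-1, H18N23.2, T15B12.1, Y105C5A.15, Y67D8A.2, B0353.1, attf-6 and gcn-1. Across all sites, 127 (21.5%) had another within 5 kb. The same share was not counted for the weaker entries, so no clustering is read from it. In sulp-3 and myrf-2 a pair of sites overlapped and met the same replicate entries, so that each such pair is close to 1 measurement.

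The first comparison asked how far each replicate alone listed these sites. Replicate 1 had an overlapping entry at 506 of them (85.8%, exact 95% interval 82.7 to 88.5%) and replicate 2 at 540 (91.5%, 88.98 to 93.6%). At listed sites the replicate 1 signal had a median of 10.02 and the replicate 2 signal one of 11.04, with median ranks of 4035 and 2980.5 of 30000. Of the distal intronic entries under 18, replicate 1 listed 56.7% and replicate 2 58.6%. Both replicates listed 456 strong sites (77.3%, against 26.2% of those under 18), replicate 1 alone 50 and replicate 2 alone 84. These shares are part of what chose the sites, since the pooled list was made from both replicates.

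The count of sites ranked high in both replicates was set beside that of the weaker entries. The weakest site ranked 2512 in the pooled list, and 42 sites (7.12%) were among the first 2512 entries of both replicates, 140 of replicate 1 alone, 198 of replicate 2 alone and 210 (35.6%) of neither. Of the 7225 weaker entries, 17 (0.235%) were among the first 2512 of both and 89.3% of neither. The strong sites high in both were led by Y111B2A.12, pqn-41, mef-2 and Y43F8B.2. Of the 590 sites, 18 were on the authors' IDR list, which keeps peaks by an irreproducible discovery rate, and these were the 18 with the highest pooled signal. The IDR list held 0.23% of all distal intronic entries and 0.397% of the whole pooled list. Nothing is read from these shares, since the pooled signal chose the sites.

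A choice made in 1 replicate could be looked up in the other. Of the 590 strongest distal intronic entries of replicate 1, 238 (40.3%) were listed in replicate 2, against 32.01% of its weaker distal intronic entries (odds ratio 1.44, Fisher exact p = 4.62e-05). For the 590 strongest of replicate 2, 263 (44.6%) were listed in replicate 1, against 31.1% (odds ratio 1.78, Fisher exact p = 5.76e-11). Among the first 2512 entries of the other replicate the shares were 7.80% against 3.14% and 8.98% against 3.35% (odds ratios 2.61 and 2.85). Strength in 1 replicate thus went with listing in the other, although most of the strongest entries of either replicate were not listed in the other.

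**Figure D2:**
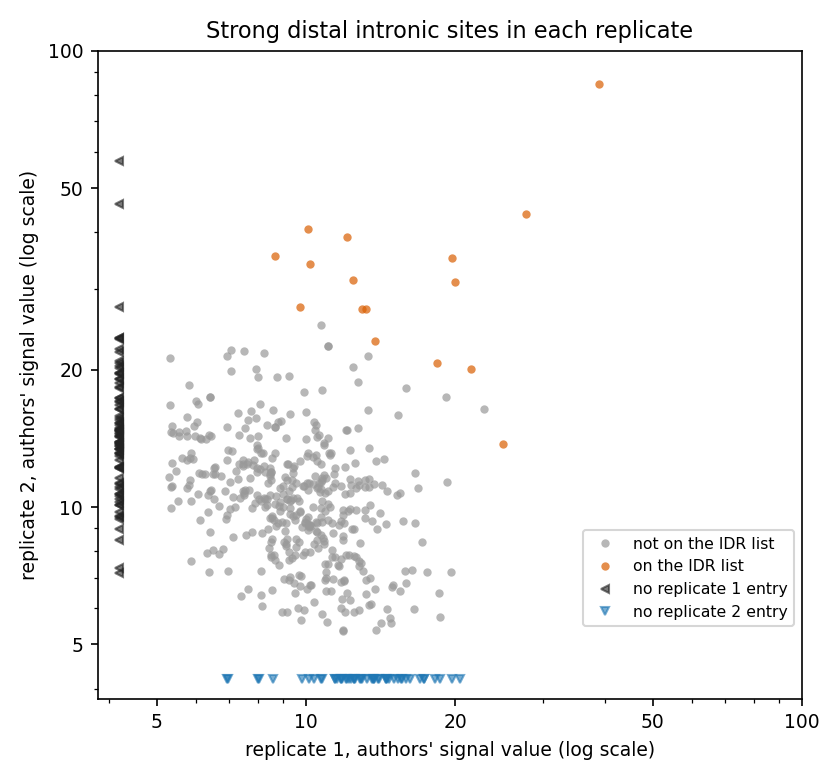
Authors' signal value of the strong distal intronic sites in replicate 1 (horizontal axis) and replicate 2 (vertical axis), both on log scales, coloured by presence on the IDR list, with triangles at the margins for sites that 1 replicate did not list. The 84 sites without a replicate 1 entry and the 50 without a replicate 2 entry lie along the margins.

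The GAGA repeat had the lowest p-value of the 8 motifs between strong and weak sites, though not the highest odds ratio. It lay within 100 bp of the summit, on either strand, in 102 of 590 strong sites (17.3%, exact 95% interval 14.3 to 20.6%) and in 580 of 7225 weaker ones (8.03%). By Fisher's exact test the odds ratio of 2.39 had p = 3.71e-12, or 2.97e-11 when adjusted over 8 motifs. Repeats of GA are a known feature of worm promoters.

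By band of signal, the repeat was at 8.84% of entries under 10, 7.05% at 10 to 12, 7.98% at 12 to 15 and 9.42% at 15 to 18. It was at 12.9% of sites at 18 to 20 and 13.7% at 20 to 25. Above that it was at 20 of 45 sites at 25 to 35 (44.4%) and 12 of 18 at 35 or more (66.7%, 40.99 to 86.7%), so the sites with the highest signal held it most often. The last band holds under 20 sites, some of them in the same gene (pqn-41 and zfp-1), and its interval counts each as separate.

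**Figure D3:**
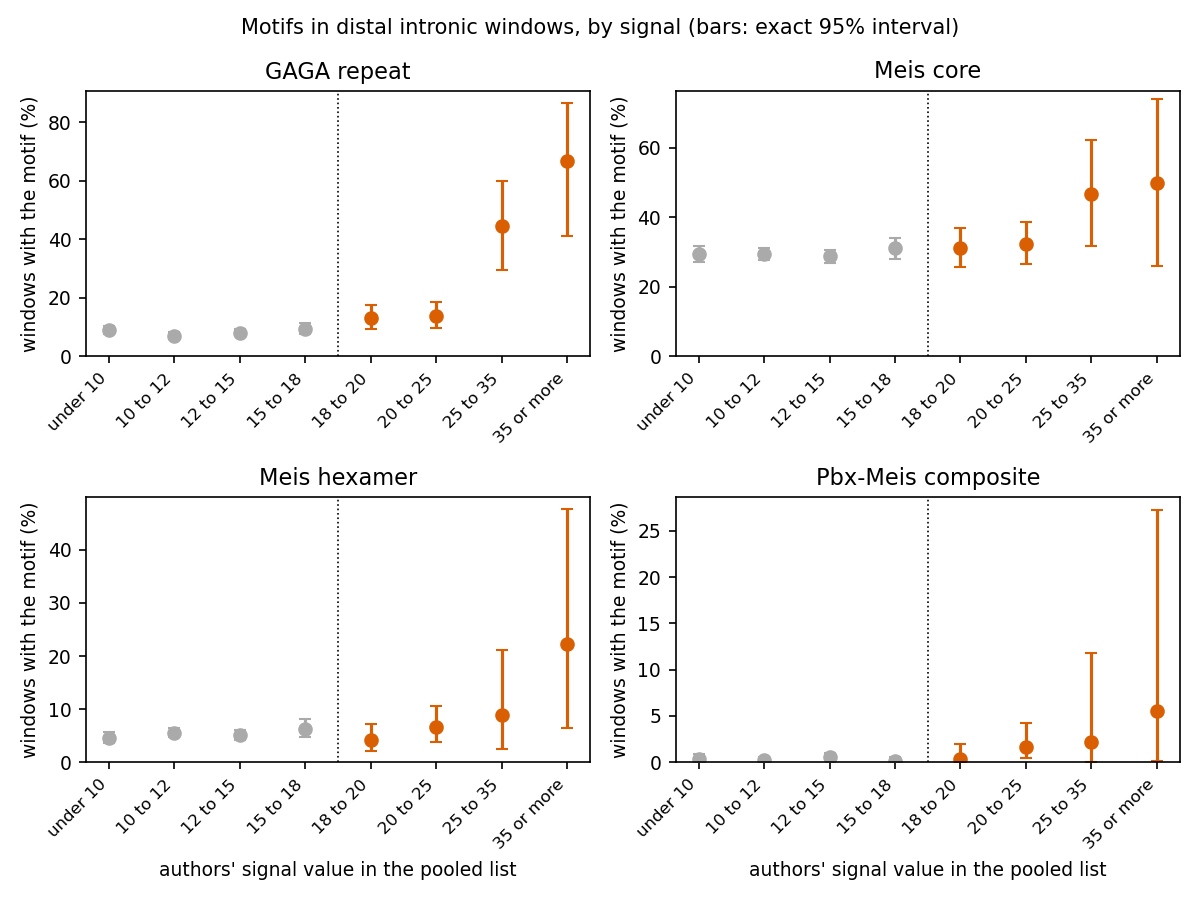
Percent of distal intronic entries (vertical axis) with a motif within 100 bp of the summit, by band of the authors' signal value (horizontal axis), with exact 95% binomial intervals as bars. The GAGA repeat rises from 7.05% to 9.42% in the bands under 18 to 66.7% at 35 or more.

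The call depended on the replicate. With sites chosen in replicate 2 alone, 19.8% of the 590 strongest and 8.68% of the rest held the repeat (odds ratio 2.60). With sites chosen in replicate 1 alone the shares were 12.03% and 8.75% (odds ratio 1.43), and the call was lost by Fisher's exact test (p = 0.0107, adjusted p = 0.0852). Unbroken GA runs of 12 bases or more were in 9 strong sites (1.53%) and 27 weaker ones (0.374%), and without such windows the odds ratio was 2.29. Within strata of GC content it was 2.22, and within strata of intron length 2.17.

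The excess was not limited to the summit itself. In each of 16 bins of 20 bp, out to 160 bp on either side, the repeat was in a larger share of strong than of weaker sites, at 1.86 to 3.56% against 0.830 to 1.36%. The bins share the same sites and were not tested singly.

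**Figure D4:**
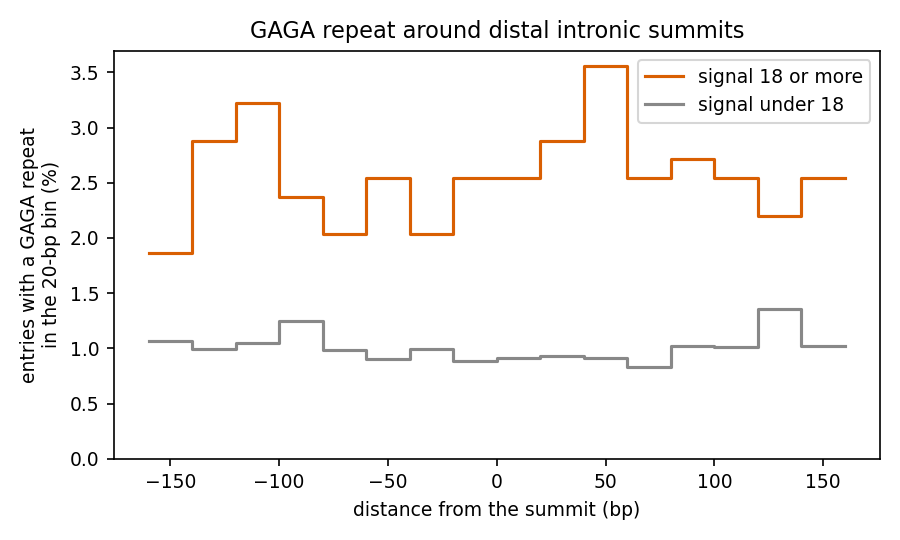
Percent of entries with a GAGA repeat centred in each 20-bp bin (vertical axis), by distance from the summit in bp (horizontal axis), for strong sites and for distal intronic entries under 18. The strong sites lie above the others in all 16 bins.

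Of the Meis-type motifs, TGACAG was in 36 strong sites (6.10%) and 382 weaker ones (5.29%), a difference that did not pass the test (odds ratio 1.16, Fisher exact adjusted p = 0.448). It was in 4 of the 18 sites at a signal of 35 or more (22.2%, 6.41 to 47.6%), those in Y111B2A.12, mef-2, Y43F8B.2 and fkh-7. The core TGACA, which the hexamer contains, was in 197 (33.4%) against 29.4% (odds ratio 1.20, adjusted Fisher exact p = 0.117). When only sites at 24 or more were set against the weak entries, the core was in 50.6% and the hexamer in 13.3% of 83 sites, and both passed the test (odds ratios 2.46 and 2.74, adjusted Fisher exact p = 0.000329 and 0.0123).

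The composite TGATTGAC was rare, at 7 strong sites (1.19%) and 27 weaker ones (0.374%). The odds ratio of 3.20 passed narrowly by Fisher's exact test (adjusted p = 0.0483), and 9 of 11 alternative settings, among them either replicate alone, ended this call. The 7 sites lay in Y56A3A.7 (39.6), ptp-1, a tyrosine phosphatase gene (29.02), egl-44, which encodes a TEAD-type factor (21.9), zfp-1 (21.8), unc-119 (20.2), E01G4.3 (20.1) and ppfr-1 (18.1). The E01G4.3 summit was 350 bp from mir-4929. Outside introns the composite also passed between strong and weak entries. The odds ratio was 2.795 for distal intergenic entries (Fisher exact adjusted p = 0.013). It was 3.05 for entries within 1 kb of a gene 5′ end (Fisher exact adjusted p = 0.00238). The alternative settings above cover intronic entries only.

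The other motifs did not separate strong from weak sites. The Pbx-Hox form TGATNNAT was in 14.7% against 13.4%, the GATA motif GATAAG in 6.95% against 5.97%, the homeodomain palindrome TAATTA in 8.31% against 10.3%, and the E-box CAGCTG in 2.54% against 2.62%. Their Fisher exact adjusted p-values were 0.273 or higher.

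All 6-base words were also counted in the same windows, so the count is not independent of the GAGA repeat result above. Of 2080 words tested, 46 (2.21%) were at more strong than weaker summits and 10 (0.481%) at fewer, by Fisher exact tests with adjustment over all words. AGAGAG led, at 15.6% against 6.45% (odds ratio 2.68, adjusted Fisher exact p = 3.95e-10). Next was GAGAGA, then AGAGAA at 26.3% against 16.01%, then AAGAGA at 20.9% against 11.7%, all of which can overlap one another. CGTCTC, which shares less with them, was at 8.98% against 3.99% (odds ratio 2.38). Words at fewer strong summits included AAAATT, at 71.4% against 80.8% (odds ratio 0.590), and AAATTA. Within strata of GC content 19 and 2 words passed.

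The same contrast outside introns showed where the intronic sites stood. The GAGA repeat was in 20.9% of strong and 10.7% of weak distal intergenic entries, and in 20.1% and 10.5% of those within 1 kb of a gene 5′ end (odds ratios 2.22 and 2.14). Strong intronic sites did not differ past the threshold from strong intergenic sites (odds ratio 0.791, Fisher exact adjusted p = 0.299) or from those near 5′ ends (0.831, adjusted p = 0.393), over 16 comparisons. TGACAG was in 9.75% of strong intergenic and 6.10% of strong intronic sites (Fisher exact p = 0.0208, adjusted p = 0.209).

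The summits lay a median of 3168 bp from the nearest gene 5′ end (1001 to 26081 bp), and 58 (9.83%) were over 10 kb away. By chromosome, the share of distal intronic entries that were strong ran from 6.66% on chromosome I to 8.49% on X, and each chromosome held 13.4 to 21.02% of the strong sites.

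Strong sites lay in longer introns than weaker ones. The intron around the summit had a median length of 1832 bp for strong and 1215 bp for weaker sites, and 170 strong sites (28.8%) against 18.6% were in introns of 5 kb or more (odds ratio 1.77, Fisher exact p = 7.49e-09, a comparison added after the data were seen). The share of entries that were strong was 5.92% in introns under 500 bp, 5.97% at 0.5 to 1 kb, 6.60% at 1 to 2 kb, 8.52% at 2 to 5 kb and 11.2% at 5 kb or more.

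First introns held 139 strong sites (23.6%) and 1144 weaker ones (15.8%), with an odds ratio of 1.64 (Fisher exact adjusted p = 1.35e-05 over 4 position features). First introns that hold a distal summit are mostly long, since the rule put the summit over 1 kb from the gene 5′ end. Those around weaker sites had a median of 5402 bp, against 991 bp for other introns. The rule sets no such limit on later introns, so this is not a comparison of all first introns with all others. Within strata of intron length the odds ratio was 1.20 (Cochran-Mantel-Haenszel adjusted p = 0.266, over the counts of sites), so the exact test's call was lost. Introns 2 and 3 held 88 and 63 strong sites (14.9% and 10.7%, against 12.2% and 12.3% of weaker ones), and later introns 300 (50.9%, against 59.7%). In introns of 5 kb or more, 50.6% of strong and 45.2% of weaker sites were in first introns.

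**Figure D5:**
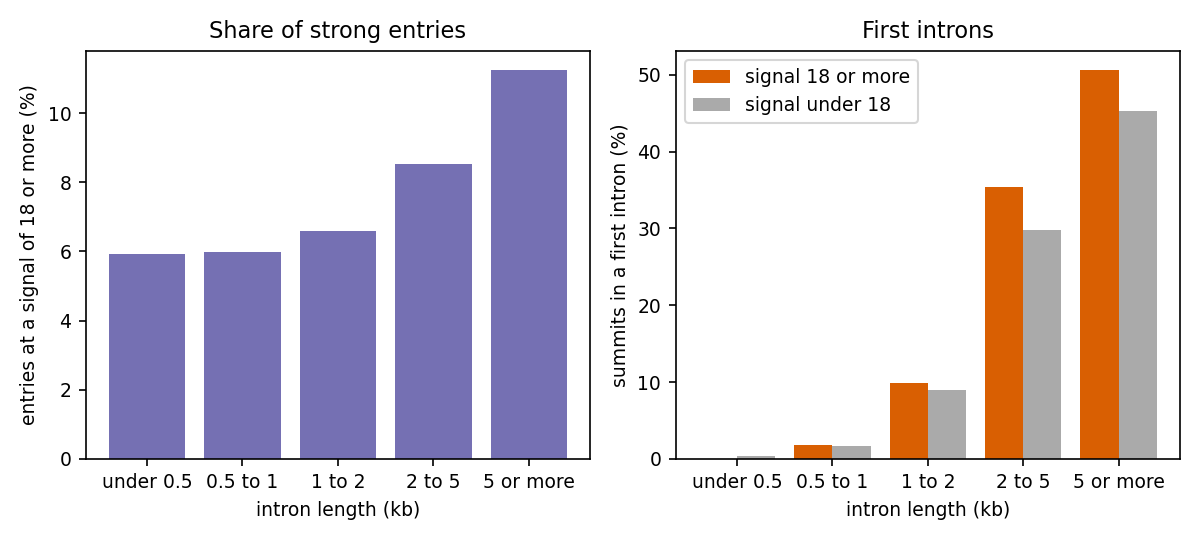
Left, percent of distal intronic entries at a signal of 18 or more (vertical axis) by length of the surrounding intron in kb (horizontal axis). Right, percent of summits in a first intron (vertical axis) for strong and weaker entries in the same length classes, with 50.6% and 45.2% at 5 kb or more.

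The remaining position features did not pass the test in the main comparison, although 3 of 12 other settings each gave a call for the internal start and for the non-coding gene. An internal transcript start lay within 1 kb of 130 strong sites (22.03%) and 19.1% of weaker ones (odds ratio 1.20, adjusted Fisher exact p = 0.124), and the X chromosome held 107 (18.1%) and 15.96% (odds ratio 1.17, adjusted p = 0.180). A non-coding gene lay within 300 bp of 69 strong sites (11.7%) and 9.01% of weaker ones (odds ratio 1.34, Fisher exact adjusted p = 0.0756). Of these 69, 35 were piRNA genes (5.93% of strong sites, against 4.75% of weaker ones) and 24 were annotated ncRNAs (4.07% against 3.46%). Another 4 each were snoRNA genes (0.678% against 0.235%) and tRNA genes (0.678% against 0.125%), and 1 each was a snRNA gene and a pseudogene. The types were not tested singly.

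Host genes were described by 13 gene lists, each read against the 13.4% of all host genes with a strong site. Developmental transcription factors outside the homeobox and nuclear receptor lists had a strong site in 16 of 53 host genes (30.2%), and 28 of their 195 distal intronic entries were strong (14.4%, against 7.55% of all). The highest were mef-2 (54.8), zfp-1 (43.3), fkh-7 (36.04), daf-16 (31.2) and daf-14, a SMAD gene of the dauer pathway (30.8). The daf-14 site had 7.49 in replicate 1 and 22.01 in replicate 2. Genes of this list had a median of 2 distal intronic entries each, against 1 over all host genes. The list was written with earlier results of these data known, and it counts zfp-1, whose 4 distal intronic entries were all strong.

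Axon guidance and migration genes had a strong site in 13 of 51 (25.5%), led by mig-10, a lamellipodin homologue (22.8), unc-52, the perlecan of basement membrane (22.7), the Robo receptor gene sax-3 (21.2), the netrin receptor gene unc-5 (20.8) and the laminin gene lam-1 (20.4). Of their entries 8.33% were strong, close to the 7.55% of all. Body wall muscle genes had a strong site in 7 of 30 (23.3%), and 7.55% of their entries were strong. They were led by unc-54, the muscle myosin heavy chain gene (26.97), and unc-52, followed by pat-4, unc-89 and jph-1 at 19.5 to 19.96. The unc-54 site had 8.21 in replicate 1 and 21.8 in replicate 2, and the unc-52 site 10.9 and 13.7. Replicate 2 was the higher at both.

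Ion channel genes had one in 13 of 93 (13.98%), and 5.79% of their entries were strong. They included twk-25, a potassium channel gene (26.3), pezo-1, a Piezo mechanosensitive channel gene (25.8), the calcium channel gene unc-2 (24.5), unc-58 (24.2) and kvs-2 (23.3). The twk-25 site had 7.05 in replicate 1 and 22.1 in replicate 2, while that of pezo-1 had closer values, 11.1 and 13.2. Nuclear hormone receptor genes had one in 9 of 58 (15.5%), with nhr-1 at 25.3, nhr-21 and nhr-256 at 23.4, nhr-88 at 21.4 and nhr-27 at 20.2. Wnt signalling genes had one in 2 of 14 (14.3%), the kinase gene lit-1 (21.4) and sfrp-1 (19.7), which encodes a secreted Frizzled-related protein.

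Homeobox genes outside the Hox and TALE groups had a strong site in 4 of 27 (14.8%), ceh-34 (19.8), ceh-91 (19.5), ceh-100 (19.2) and the Pax6 gene vab-3 (18.3). Of the Hox genes 1 of 3 had one: the first intron of lin-39, the Hox gene of the midbody (chromosome III, 7534641 to 7534976), held a site at 27.5 pooled and 23.4 in replicate 2, with no replicate 1 entry. Its summit lay 4 bp from an internal transcript start. None of 5 TALE homeobox genes, 10 neuropeptide genes, 6 intestine and vitellogenin genes or 3 cuticle collagen genes with a distal intronic entry had a strong one, and no ribosomal protein gene had a distal intronic entry at all. In that order the first lists held only 12, 16, 7 and 3 distal intronic entries, and 7.55% of all such entries were strong. Nothing is read from these absences.

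The loci of the transgene's own genes need care, since the animals carry extra copies of them. In unc-62 none of 8 distal intronic entries was strong, and the highest reached 15.8. In unc-119 the only entry was strong, at 20.2 pooled, 8.12 in replicate 1 and 13.2 in replicate 2, and its window held the hexamer, the composite and the GAGA repeat. The part of transgene copies in these values was not tested.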

How the data were processed

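UNC-62 ChIP-seq peak lists of 2 biological replicates of whole L1 larvae, 1 group, were used as deposited in build ce11: 1 list per replicate, 1 pooled and 1 thresholded by IDR. In the deposited lists, which follow the narrowPeak column layout, each entry has the authors' signal value and a −log10 q-value. The −log10 q-value is given for some sites but was used neither to choose sites nor in any comparison. The signal value is the authors' own and served only to rank, filter and describe entries within a list. The aligner, peak caller and IDR cutoff are not given in the sources used here, and control libraries were not analysed here. The replicate and pooled lists hold 30000 entries of fixed width (370 bp in replicate 1, 336 bp in the others), so presence in a list is not evidence of binding. Read depth is unknown.

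Genes came from Ensembl release 115 (WBcel235) and sequence from RefSeq. The host gene was that of the longest-spanning transcript whose intron held the summit. Strong and weaker sites were compared by 2-sided Fisher exact tests, with Benjamini-Hochberg adjustment over 8 motifs, 4 position features, 2080 6-base words or 16 comparisons between classes, at a threshold of 0.05. Strata used the Cochran-Mantel-Haenszel test. Intervals are exact Clopper-Pearson 95% binomial intervals and cover counting error only. The tests treat sites, not animals, as the units and say nothing of variation among animals. The motif counting and its tests were checked on simulated windows independent of one another, so dependence among neighbouring sites was not checked.

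The sites, motifs, gene lists and rules were chosen with earlier results of these data known. Named are host genes of the 20 strongest sites, genes with 3 or more sites, up to 5 genes of each list, the 3 sites on each side of the limit, sites with the composite and the 5 strongest with the hexamer. Names outside that rule are tat-2, myrf-2, neighbouring non-coding genes and the transgene loci, chosen after their values were seen. Tools were Python 3.11.15 with numpy 2.4.6, scipy 1.17.1, pandas 2.3.3, statsmodels 0.14.6 and matplotlib 3.10.9.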

Additional observations from a re-analysis of the deposited data

How the results depend on the processing

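Of 109 alternative values, 81 kept their direction and side of the threshold or, for the count of motifs, stayed at 2 to 3. Of the others, 19 lost a call or lowered that count, 9 gained a call and 0 reversed. Of the alternatives, 54 were chosen after seeing the data. Of 14 settings for the GAGA repeat, 13 kept its call, and the replicate 1 list alone did not. Of 8 motifs, 2 passed in the main intronic comparison. That fell to 1 at a signal of 15 or more, 2 kb from gene 5′ ends, with 1 entry per host gene, over the whole interval, within GC strata and over 1 kb from transcript 5′ ends. It ranged from 0 to 1 when either replicate was left out. It rose to 3 at a signal of 24 or more and with 50 bp each side, where the Meis core passed (odds ratios 2.46 and 1.34). The Meis hexamer passed at a signal of 24 or more (odds ratio 2.74). The first intron odds ratio fell to 1.20 within strata of intron length. The internal transcript start passed in 3 separate settings: at a signal of 24 or more (1.93), with 1 entry per host gene (1.38), and without entries within 300 bp of a non-coding gene (1.28). The non-coding gene passed with 1 entry per host gene (1.47) and over 1 kb from transcript 5′ ends (1.53), and ranged from 1.18 to 1.37 when either replicate was left out, passing in the replicate 1 list alone. The cause of these changes was not tested.

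No paired analysis was possible because the samples form 1 group. The replicate lists, of unknown depth and unequal entry width, limit what can be said of any single site. With 18 sites at 35 or more, shares in that band have wide intervals.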
